A study of Mus musculus with 75 samples.

Results

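The 42 transcripts described here were scarce on tagged ribosomes, relative to the whole lysate, in stimulated mouse CD4 T cells. They were chosen by measured values from 53465 gene identifiers in the RiboTag count table. Counts were scaled by each library's total and are given as CPM (counts per 1000000). A member had a mean of at least 10 CPM in stimulated Input, the RNA of the culture before the ribosomes were precipitated. Its log2 ratio of mean IP to mean Input CPM, with 1 CPM added to each, was -1 or lower, and IP was below Input in at least 4 of 5 mice. IP is the RNA that came down with the tagged ribosomes. Of the 9067 identifiers at or above 10 CPM, 53 met these thresholds, and 9 mitochondrial and 2 other identifiers were set aside. The tables give Ensembl gene identifiers only and do not pair them with gene names, so the members are given by identifier and their functions, annotation and sequences were not analysed here.

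Most transcripts of a cell are read by several ribosomes at once, and such strings of ribosomes, polysomes, sediment fast through sucrose. Free mRNA, mRNA with few ribosomes and RNA that is not translated stay in the lighter, subpolysomal part of the gradient. Long noncoding RNAs, RNAs held in the nucleus and mRNAs that are repressed are the known kinds of transcript with little ribosome on them. CD4 T cells raise translation when they are activated, and regulatory T cells (Tregs) restrain that activation.

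All cells were CD4 effector T cells (CD4 Teff, CD4+CD25-) from spleen and lymph nodes. In the RiboTag assay they came from 5 mice, made by crossing B6N.129-Rpl22tm1.1Psam/J mice with the Cre line B6.Cg-Tg(Cd4-cre)1Cwi/BfluJ, in which Cre under the Cd4 promoter switches on a tagged form of the ribosomal protein Rpl22. Each mouse gave an IL7-rested culture, a culture with anti-CD3/CD28 beads (stimulated) and a culture with beads and Tregs, each as Input and IP, 30 libraries in all. Hence IP holds the ribosomes of cells that made the tag. The Tregs were CD4+YFP+ cells, which the labels connect with Foxp3YFP-Cre mice, and whether they were removed before lysis is not given in the sources used here. Input of those cultures may thus hold Treg RNA that IP does not, and the part of this in the ratios with Tregs cannot be told apart from ribosome loading. For SPEED, 4 other mice (B6.SJL-PtprcaPepcb/BoyJ) gave cells that were untreated, stimulated with beads, given beads with Tregs, or given beads with HHT for the last 10 min. RNA was taken from Input, polysomal (Pol) and subpolysomal (SubPol) sucrose fractions. There was no HHT culture of mouse 4, and the labels spell out neither HHT nor SPEED. The labelled cell type could not be checked against marker genes without gene names. Libraries held 1658481 to 2824875 gene counts in RiboTag and 1566501 to 4621104 in SPEED.

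In the stimulated cultures that chose them, the members' summed level was 1582 to 1718 CPM in Input and 673 to 789 CPM in IP over the 5 mice. These values are a description, since the choice fixed them. IP was below Input in all 5 mice for 38 members and in 4 of 5 for the other 4. The lowest ratio of the rule was -2.79, for ENSMUSG00000084796, followed by -2.40 for ENSMUSG00000115222 and -1.81 for ENSMUSG00000110279. Nearest to the threshold, ENSMUSG00000097705, ENSMUSG00000038658 and ENSMUSG00000046404 lay inside at -1.006, -1.013 and -1.016. ENSMUSG00000066306, ENSMUSG00000028068 and ENSMUSG00000033446 lay outside at -0.999 for the second and -0.991 for the third, the first being nearer still. On the Input threshold, ENSMUSG00000084796, ENSMUSG00000066798 and ENSMUSG00000055150 lay inside at 10.06, 10.23 and 11.41 CPM, and ENSMUSG00000091021, ENSMUSG00000072915 and ENSMUSG00000073478 outside at 9.701, 9.563 and 8.578 CPM.

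The members were mostly low in level. Their mean stimulated Input ranged from 10.1 to 283 CPM with a median of 21.5, against a median of 73.3 CPM over the 9055 identifiers at or above the threshold that were not set aside. Below 20 CPM lay 21 of 42 members (50%), against 11.7% of those identifiers. Behind a member stood a median of 47.8 counts per library in stimulated Input and 17.5 in IP. The part of counting noise in the choice was not tested, and the other cultures show which members were low on tagged ribosomes there too.

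In IL7-rested cells of the same 5 mice, libraries that had no part in the choice, 20 of the 42 members had less RNA in IP than in Input by the test and 0 had more. Of all 10751 tested genes, 3.54% were lower and 3.35% higher. The median log2 ratio of IP over Input was -0.93 for the members and 0.00 over all genes, and 41 of 42 members had a ratio below 0. With Tregs added, 14 members were lower and 0 higher, against 1.18% and 0.670% of all genes. The members' median was then -0.82, against 0.01 over all genes, and 40 of 42 were below 0. A call means a Benjamini-Hochberg adjusted p under 0.05 over all genes by the two-sided quasi-likelihood test of edgeR. The fit had no term for mouse or culture, so Input and IP of a culture were not paired in it. Without mouse 5 the count with Tregs was 9, and with the culture as a block it was 25. Shares of all genes were not counted for such other fits, here or below. The shares above are no scale for their counts. The spread was estimated over all RiboTag libraries, those of the choice included. In a fit of only the groups compared, which leaves those of the choice out, the rested count was 13.

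**Figure D1:**
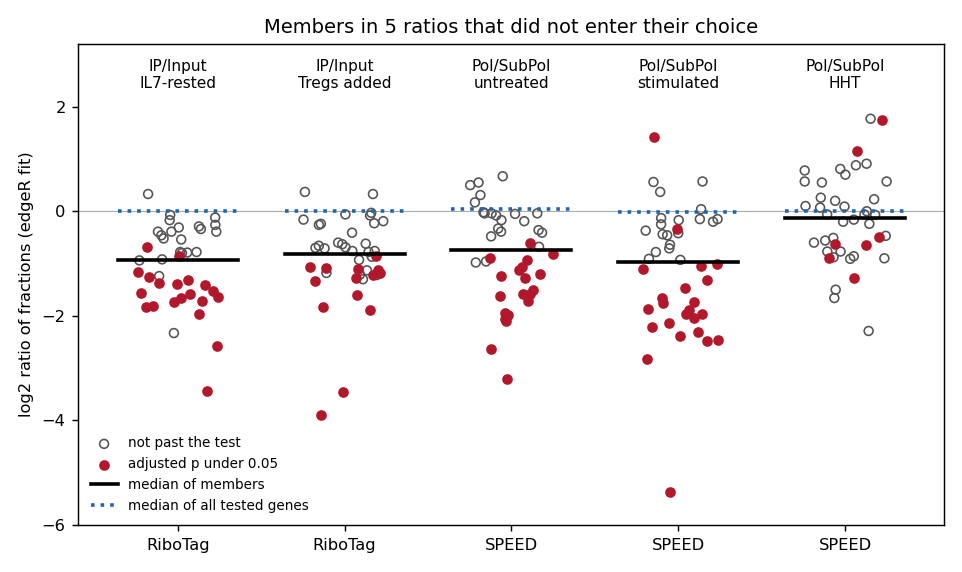
Each point is a member's log2 ratio of fractions from the edgeR fit (y axis), in 5 ratios that the choice of members did not use (x axis); filled points passed the test, black bars are the members' medians and dotted bars the medians of all tested genes. The members' medians were -0.93, -0.82, -0.75 and -0.97 in the first 4 ratios and -0.12 with HHT. ENSMUSG00000036777 is not drawn in untreated SPEED cells, where its SubPol libraries all held 0 counts.

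IP was below Input in every mouse for 23 of 42 members in rested cells and for 26 with Tregs, against 11.3% and 12.1% of all tested genes. By mouse, the members' median log2 ratio in rested cells was -0.66, -1.12, -1.37, -0.99 and -1.37 for mice 1 to 5. With Tregs it was -0.83, -0.75, -0.96, -0.97 and -1.06. Every mouse was thus below 0 in both cultures, and the median over all genes stayed between -0.04 and 0.04. Mouse 1 was the least low of the rested cultures: the members' summed level was 1254 CPM in IP and 1904 CPM in Input there, a log2 ratio of -0.60, against -1.0, -1.14, -1.04 and -1.01 in mice 2 to 5.

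Of the 42 members, 13 were lower in IP in both cultures, 8 in 1 of them and 21 in neither. Of all 10751 tested genes, 0.623% were lower in both and 3.48% in 1. The mean rested Input of these classes had medians of 73.2, 36.4 and 16.6 CPM, so the members with calls were also the better measured ones. The part of depth in the missing calls was not tested. In the class without a call, the median log2 ratios were -0.39 in rested cells and -0.62 with Tregs, against -1.65 and -1.22 in the class with both calls. The name of the set therefore describes the stimulated libraries for all 42 members, and in the other cultures it rests on a test for 21. That test did not pair Input and IP of a culture. With the culture as a block more members were lower in IP with Tregs, and the classes were not counted anew in that fit.

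ENSMUSG00000115222 was the member with the largest fall. Its rested Input levels were 24, 21.7, 39.7, 31.9 and 40.8 CPM in mice 1 to 5, and its IP levels were 1.61, 2.17, 3.85, 0 and 7.10 CPM. The highest IP library lay below the lowest Input library. The log2 ratio of IP over Input was -3.44 (SE 0.59, edgeR adjusted p = 0.000312, n = 5 mice). With Tregs, Input was 5.65, 6.42, 24, 21 and 14.2 CPM, and IP was 0, 0, 2.83, 1.53 and 0 CPM. Again no IP library reached an Input library, with a log2 ratio of -3.89 (SE 0.70, edgeR adjusted p = 0.00157). In 3 of 5 IP libraries with Tregs not a single read was counted.

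ENSMUSG00000084796 followed the same course at a lower level. In rested cells Input was 9.25, 12.7, 20.6, 18.1 and 14.3 CPM and IP was 0.803, 3.90, 1.93, 2.96 and 2.84 CPM, groups that did not overlap. With Tregs, Input was 7.71, 8.91, 12.4, 14.3 and 13.4 CPM and IP was 1.61, 1.79, 0.354, 0.509 and 0.483 CPM. The log2 ratios were -2.57 (SE 0.36) and -3.45 (SE 0.41), with edgeR adjusted p-values of 2.06e-05 and 1.17e-06.

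ENSMUSG00000030753 was the most abundant member, at 283 CPM in stimulated Input. Its rested Input was 216 to 265 CPM (mean 244 ± 20, SD, n = 5) and its IP was 66.5 to 120 CPM (91.8 ± 20.7). With Tregs, Input was 221 to 326 CPM (277 ± 43.5) and IP 85.9 to 136 CPM (108 ± 22.2). The groups lay apart in both cultures, and the log2 ratios were -1.41 (SE 0.15) and -1.33 (SE 0.15), with edgeR adjusted p-values of 9.40e-08 and 2.66e-07.

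ENSMUSG00000110279 and ENSMUSG00000035356 also kept IP below every Input library. For ENSMUSG00000110279, rested Input was 94.8, 125, 89.8, 95.8 and 65.4 CPM and IP was 30.5, 46.8, 28.9, 30.5 and 22.7 CPM, a log2 ratio of -1.56 (SE 0.22). With Tregs its log2 ratio was -1.84 (SE 0.22), Input being 42.8 to 99.2 CPM and IP 10.2 to 29.3 CPM. For ENSMUSG00000035356, rested Input was 50.9 to 102 CPM and IP 15.9 to 32.5 CPM, and with Tregs Input was 32.7 to 43.6 CPM and IP 4.82 to 15 CPM. Its log2 ratios were -1.65 (SE 0.24) and -1.88 (SE 0.26). The edgeR adjusted p-values of these 4 ratios were 1.32e-05, 1.58e-06, 3.59e-05 and 2.39e-05.

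Among the other members with both calls, ENSMUSG00000040043 had log2 ratios of -1.81 (SE 0.21) in rested cells and -1.08 (SE 0.20) with Tregs. ENSMUSG00000102869 was close to it, at -1.74 (SE 0.22) and -1.10 (SE 0.21). ENSMUSG00000035847 was at -1.72 (SE 0.22) and -1.07 (SE 0.23), and ENSMUSG00000046404 at -1.97 (SE 0.35) and -1.61 (SE 0.35). The last 2 lost the call with Tregs without mouse 4 (edgeR adjusted p = 0.0585 and 0.0793) and without mouse 5 (0.0609 and 0.0541). ENSMUSG00000085438 and ENSMUSG00000037266, both above 100 CPM in rested IP on average, had rested ratios nearer to 0, of -0.85 (SE 0.19) and -0.68 (SE 0.14), and the latter call was lost without mouse 5 (edgeR adjusted p = 0.0510). The other 2 with both calls were ENSMUSG00000047959 and ENSMUSG00000097705, whose calls with Tregs were lost without mouse 4 (edgeR adjusted p = 0.0659 and 0.135) and without mouse 5 (0.130 and 0.114), among other mice.

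**Figure D2:**
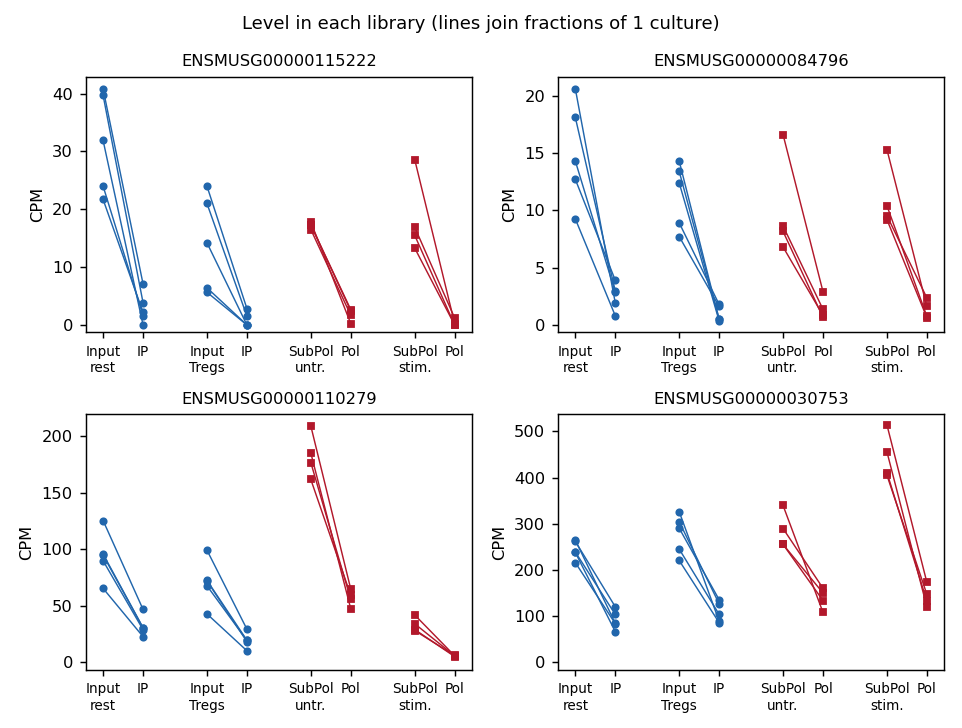
Level in CPM (y axis) of 4 members in each library, with lines joining the fractions of 1 culture: Input and IP of rested and Treg-added RiboTag cultures (5 mice, circles) and SubPol and Pol of untreated and stimulated SPEED cultures (4 mice, squares). In every culture drawn, the IP or Pol library lies below the Input or SubPol library it is joined to, from 265 to 84.5 CPM in rested mouse 2 for ENSMUSG00000030753, for example.

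No member's ratio was called different between the cultures that did not enter the choice. In the test of the difference between Treg-added and rested IP over Input, 0 of 42 members were lower and 0 higher, against 0% and 0.00930% of all genes. By edgeR 4 members had an unadjusted p under 0.05, all towards higher with Tregs, against 611 of all 10751 genes in either direction. By DESeq2 0 members were called and 4 had an unadjusted p under 0.05. The largest difference of these was 1.23 (SE 0.30, edgeR adjusted p = 0.353), for ENSMUSG00000086429, which was lower in IP in rested cells at -1.84 (SE 0.22) and at -0.60 (SE 0.21, edgeR adjusted p = 0.124) with Tregs. With the mouse or the culture as a block, 1 member was called higher. IP over Input in the stimulated culture was not compared with these, since it chose the members.

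The SPEED assay measures ribosome association in another way and in other animals. In stimulated cells, 22 of 42 members were lower in Pol than in SubPol and 1 was higher, against 21.8% and 23.6% of the 12428 tested genes. The members' median log2 ratio was -0.97, against -0.01 over all genes, and 37 of 42 were below 0. In untreated cells 20 were lower and 0 higher, against 17.8% and 21.9%, with a median of -0.75 against 0.04. Pol was below SubPol in all 4 stimulated mice for 24 members, against 36.9% of all genes. By mouse the members' median log2 ratio was -1.2, -1.08, -1.29 and -1.26 in stimulated cells and -1.05, -0.61, -0.94 and -0.97 in untreated cells. These are ratios of CPM without TMM scaling, and their medians over all genes were -0.16, -0.18, -0.06 and -0.20 in stimulated cells and -0.04 to 0.00 in untreated cells. In both cultures 19 members were lower in Pol, of the 20 and the 22. The share of all genes lower in both was not counted, so this overlap is a description only.

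The 2 members lowest on tagged ribosomes were also lowest on polysomes. ENSMUSG00000115222 was at 13.3, 16.9, 28.6 and 15.5 CPM in SubPol of stimulated mice 1 to 4 and at 0, 1.2, 0.248 and 0 CPM in Pol. Its log2 ratio was -5.37 (SE 0.81, edgeR adjusted p = 7.48e-07), a value that depends on Pol libraries with few or no reads. In untreated cells SubPol was 17.3, 16.5, 17.8 and 17.3 CPM, a spread of 0.562 CPM (SD), and Pol was 2.45, 1.67, 0.223 and 2.64 CPM. ENSMUSG00000084796 was at 9.53, 15.3, 10.4 and 9.19 CPM in stimulated SubPol and at 2.36, 1.61, 0.745 and 0.638 CPM in Pol, a log2 ratio of -2.82 (SE 0.46, edgeR adjusted p = 3.42e-06). In neither member did a Pol library reach a SubPol library in either culture.

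For ENSMUSG00000030753, stimulated SubPol was 405, 411, 514 and 456 CPM, Input 311, 292, 301 and 309 CPM and Pol 147, 132.5, 173 and 120 CPM. The Input libraries thus lay between both fractions, and none of the 3 groups overlapped. Pol over SubPol was -1.46 (SE 0.13, edgeR adjusted p = 8.10e-12). ENSMUSG00000085438 was at 203 to 236 CPM in SubPol and at 31.3 to 46.5 CPM in Pol, a log2 ratio of -2.31 (SE 0.14, edgeR adjusted p = 4.50e-15).

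Set against Input of the same stimulated cultures, 14 members were lower in Pol and 0 higher, where 4.42% of all genes were lower and 3.91% higher. Pol was below Input in all 4 mice for 26 members, against 19% of all genes. In SubPol 12 members were higher than in Input and 1 lower, against 14.5% and 16.3% of all genes. The median log2 ratio was -0.89 for Pol over Input and 0.29 for SubPol over Input, over all genes 0.01 and 0.06. The SubPol count was 5 without mouse 3 and 6 without mouse 4. The 1 member lower in SubPol was ENSMUSG00000034973, at -1.13 (SE 0.38, edgeR adjusted p = 0.0199).

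Members lower in IP in both cultures were also lower in polysomes. All 13 members that were lower in IP in rested cells and with Tregs were also lower in Pol than in SubPol in stimulated SPEED cells, and 12 of them in untreated cells. The weakest of these was ENSMUSG00000037266, at -0.33 (SE 0.14, edgeR adjusted p = 0.0467), whose call was lost without mouse 2, 3 or 4 (0.268, 0.128 and 0.137). Of the 8 with 1 RiboTag call, 4 were lower in stimulated Pol, and of the 21 with none, 5 were (23.8%), close to the 21.8% of all genes. Genes at large with the same RiboTag calls had similar shares: 60 of the 67 lower in IP in both cultures were lower in stimulated Pol, 187 of 374 with 1 call, and 2247 of 10250 with none. Such shares were not counted for untreated cells. The genes at large include the members, and the link between the assays was not shown to be particular to the members. The stimulated Pol over SubPol medians of the 3 classes were -1.96, -0.97 and -0.42. Across the 42 members, which are not replicates, the log2 ratio with Tregs in RiboTag and the stimulated log2 ratio in SPEED had r = 0.729 (Spearman's rho 0.605). Across the 10691 genes tested in both assays it was 0.313 (rho 0.260). For rested RiboTag and untreated SPEED cells the members gave r = 0.355 (rho 0.504) and all genes 0.212 (rho 0.267). The points of an assay share its libraries, and ENSMUSG00000115222 and ENSMUSG00000084796 lie far from the others on both axes.

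**Figure D3:**
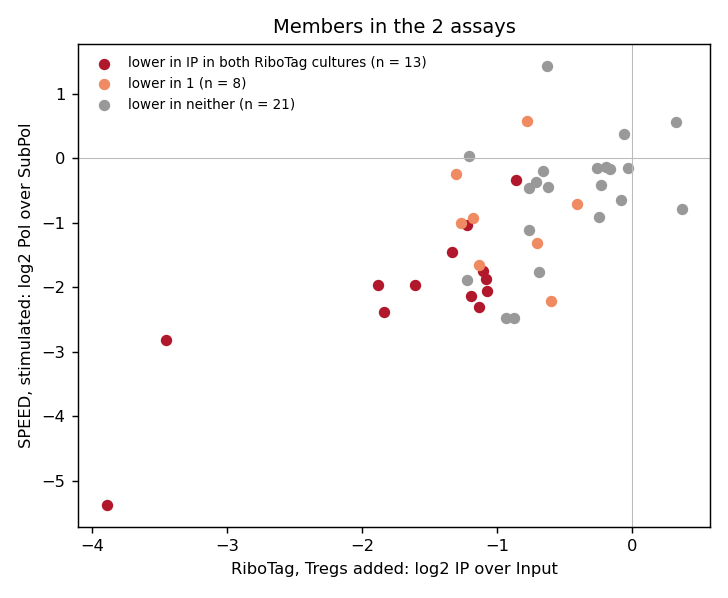
Each point is a member, with its log2 IP over Input in Treg-added RiboTag cultures (x axis, 5 mice) against its log2 Pol over SubPol in stimulated SPEED cultures (y axis, 4 mice), coloured by how many of the rested and Treg-added RiboTag ratios passed the test. The 13 members with both calls all lie below 0 on both axes, and ENSMUSG00000115222 lies lowest at -3.89 and -5.37.

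For 15 members no ratio was called lower, neither in rested or Treg-added RiboTag cells nor in Pol over SubPol of untreated or stimulated cells. The share of all genes without such a call was not counted. Of these 15 members, ENSMUSG00000038658 went the other way in SPEED. Its stimulated SubPol was 13, 6.43, 0.921 and 8.04 CPM and its Pol was 14.8, 18.1, 23.4 and 10.2 CPM, groups that overlap through mouse 1. The log2 ratio was 1.43 (SE 0.52, edgeR adjusted p = 0.0240), and the call was lost without mouse 2 (0.0969) or mouse 3 (0.259). ENSMUSG00000063535 had one of the lowest ratios of the rule, -1.39, yet its rested log2 ratio of -1.24 (SE 0.40, edgeR adjusted p = 0.0562) and its ratio with Tregs of -0.19 (SE 0.42, adjusted p = 0.864) did not pass. Its SPEED levels were 5.68 ± 4.74 CPM in stimulated Pol and 6.82 ± 3.79 CPM in SubPol (SD, n = 4). ENSMUSG00000028649, one of the more abundant members, had 205 ± 54.1 CPM in rested Input and 156 ± 31.1 CPM in rested IP (SD, n = 5), with a log2 ratio of -0.39 (SE 0.19, edgeR adjusted p = 0.227).

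Pol over SubPol was higher with HHT than without it for 15 members. In the test of the difference in Pol over SubPol between HHT and stimulated cultures, 15 of 42 members rose and 0 fell, against 10.3% and 12.7% of all genes. The members' median difference was 0.97 on the log2 scale, against 0.06 over all genes, and 38 of 42 were above 0. The members' summed level in Pol was 645 to 815 CPM in the 4 stimulated mice and 971 to 1198 CPM in the 3 HHT mice. In SubPol it was 1869 to 2199 CPM without and 1191 to 1501 CPM with HHT, so the groups lay apart in both fractions, in opposite directions. Each level is relative to the other RNA of its own fraction, so movement of RNA between fractions was not measured. The count of rises was 9 without mouse 1, and likewise 9 without mouse 3. Mitochondrial identifiers, which are no members, moved too: the log2 ratio of their share of counts in Pol to that in SubPol was -1.15 ± 0.09 (SD, n = 4) in stimulated and -0.36 ± 0.38 (n = 3) in HHT cultures. Over all genes, 2712 were lower and 2930 higher in Pol than in SubPol without HHT, and 279 and 560 with it. The rise was not shown to be particular to the members.

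ENSMUSG00000085438 had the lowest adjusted p. With HHT its Pol levels were 76.7, 70.7 and 92.0 CPM in mice 1 to 3 and its SubPol levels 82.9, 92.6 and 120 CPM. Without it, Pol was at most 46.5 CPM and SubPol at least 203 CPM. The log2 difference was 2.12 (SE 0.21, edgeR adjusted p = 1.17e-08). For ENSMUSG00000030753 the log2 difference was 0.84 (SE 0.20, edgeR adjusted p = 0.00152). Its SubPol was at 447 ± 50.5 CPM (SD, n = 4) in cultures without HHT and 271 ± 24.4 CPM (n = 3) with it. Its Pol was at 143 ± 22.8 and 163 ± 29.6 CPM. For ENSMUSG00000028649 it was 1.60 (SE 0.31, edgeR adjusted p = 0.000183). Pol was at 52.5 ± 11.5 CPM without and 117 ± 19.9 CPM with HHT, and SubPol at 81.2 ± 16.4 and 56.0 ± 14.8 CPM. In these CPM, each relative to its own fraction, the difference was mostly in SubPol for ENSMUSG00000030753 and mostly in Pol for ENSMUSG00000028649. For ENSMUSG00000085438 it was in both.

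Under HHT itself, 5 members were lower in Pol than in SubPol and 2 higher, against 2.24% and 4.51% of all genes, and the members' median log2 ratio was -0.12 against 0.01. The 5 lower ones were ENSMUSG00000110279, ENSMUSG00000030753, ENSMUSG00000035847, ENSMUSG00000037266 and ENSMUSG00000040043, and the 2 higher ones ENSMUSG00000003847 and ENSMUSG00000028649. ENSMUSG00000110279 was the lowest of them, at -1.28 (SE 0.24, edgeR adjusted p = 0.000593), with Pol at 4.98, 3.67 and 7.39 CPM and SubPol at 13.3, 12.1 and 18.6 CPM. With 3 mice these counts were unstable: 1 member was lower without mouse 1 and 1 without mouse 3, while 0 to 2 were higher with a mouse left out. DESeq2 called 10 members lower, and the mouse as a block gave 9, with the shares of all genes in those fits not counted.

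**Figure D4:**
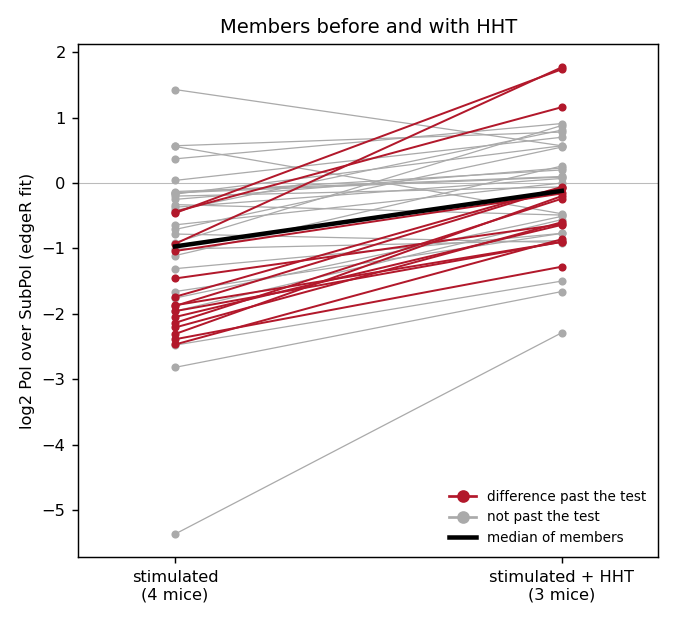
Log2 Pol over SubPol of each member (y axis) in stimulated cells of 4 mice and in stimulated cells with HHT of 3 mice, joined by a line, in red where the difference passed the test. The members' median was -0.97 in cultures without HHT and -0.12 in those with it, and 15 lines are red, all of them rising.

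For added Tregs no member passed the corresponding tests in SPEED. In the test of Pol over SubPol with Tregs against stimulated cultures, 0 members were lower and 0 higher, against 0% and 0% of all genes. Here 1 member had an unadjusted p under 0.05 by edgeR, against 328 of all 12428 genes. By DESeq2 0 members were called and 1 had an unadjusted p under 0.05. By mouse the members' median log2 ratio was -1.45 to -1.2 with Tregs and -1.29 to -1.08 without, ranges that overlap. In SPEED Input, 0 members were lower and 0 higher with Tregs, against 0.129% and 0.459% of all genes. By edgeR 4 members had an unadjusted p under 0.05, against 1795 of all 12428 genes, a larger share. DESeq2 and the fit with the mouse as a block each called 1 member higher. ENSMUSG00000110279 came closest, at 0.66 (SE 0.17, edgeR adjusted p = 0.0604), with 23.3 to 36.2 CPM with Tregs and 15.9 to 23 CPM without. Since removal of the Tregs before lysis is not given, SPEED libraries with Tregs may hold Treg RNA too. Its part in these values cannot be told apart from a change in the effector cells.

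The RNA level of many members differed between cultures without and with beads, and more of them were lower than higher with beads. In the RiboTag comparison the cultures with beads also held Tregs, so beads and Tregs cannot be told apart there. The cultures without beads differ too, being untreated in SPEED and IL7-rested in RiboTag. In bulk RNA, fewer cells that hold a transcript and less of it per cell cannot be told apart. In SPEED Input, 6 members rose and 14 fell from untreated to stimulated cells, against 27.9% and 26.5% of all genes. In RiboTag Input, 6 rose and 17 fell from rested cells to cells with beads and Tregs, against 29.1% and 26.9%. Without mouse 4 the 17 became 11. Members that fell thus made up 33.3% and 40.5% of the 42, and members that rose 14.3% in either assay. The members' median log2 change was -0.49 in SPEED and -0.39 in RiboTag, with 30 of 42 below 0 in each, against 0.01 and 0.00 over all genes. The stimulated RiboTag Input was not tested here, since the choice of members used it. Of the 42 members, 5 rose in both assays, 11 fell in both and 0 passed in opposite directions. Of the 10691 genes tested in both assays, 21.6% rose in both, 18.5% fell in both and 1.38% passed in opposite directions, so a shared sign is usual here.

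The members that rose in both were ENSMUSG00000097769, ENSMUSG00000024401, ENSMUSG00000097180, ENSMUSG00000036591 and ENSMUSG00000036777. With each mouse left out in turn, 2 of these 5, ENSMUSG00000097769 and ENSMUSG00000036777, were called in both assays each time, and 6 of the 11 that fell. ENSMUSG00000097180 lost its SPEED call without any of the 4 mice (edgeR adjusted p = 0.0535 to 0.124), and ENSMUSG00000024401 its RiboTag call without mouse 3, 4 or 5 (0.146, 0.170 and 0.132). ENSMUSG00000036777 had 0 counts in all 4 untreated Input libraries and 36, 30.8, 14.2 and 13.6 CPM in the stimulated ones. Against a floor of 3 counts per library it was at least 30.5-fold higher. ENSMUSG00000097769 was at 7.06, 13.7, 9.67 and 8 CPM in untreated and at 30.6, 27.9, 42.1 and 28.9 CPM in stimulated Input, with no overlap and a log2 change of 1.74 (SE 0.28, edgeR adjusted p = 1.53e-06). Its log2 Pol over SubPol stayed low in both states, at -1.98 (SE 0.31) in untreated and -2.47 (SE 0.28) in stimulated cells.

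ENSMUSG00000110279 fell the furthest of the members named for both calls. Its Input was 124, 145, 128 and 130 CPM in untreated and 15.9, 23, 20.8 and 18.5 CPM in stimulated SPEED cells, a log2 change of -2.76 (SE 0.17, edgeR adjusted p = 1.14e-16). Pol over SubPol was -1.58 (SE 0.16) in untreated and -2.39 (SE 0.20) in stimulated cells, and the difference between these was not tested. ENSMUSG00000035847 fell by 1.36 on the log2 scale (SE 0.16, adjusted p = 1.73e-09) and ENSMUSG00000028649 by 1.74 (SE 0.19, adjusted p = 1.04e-09). ENSMUSG00000097769, which rose, and ENSMUSG00000110279 and ENSMUSG00000035847, which fell, were all lower in Pol than in SubPol in untreated and stimulated cells. ENSMUSG00000028649, which also fell, was called lower in Pol in neither.

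**Figure D5:**
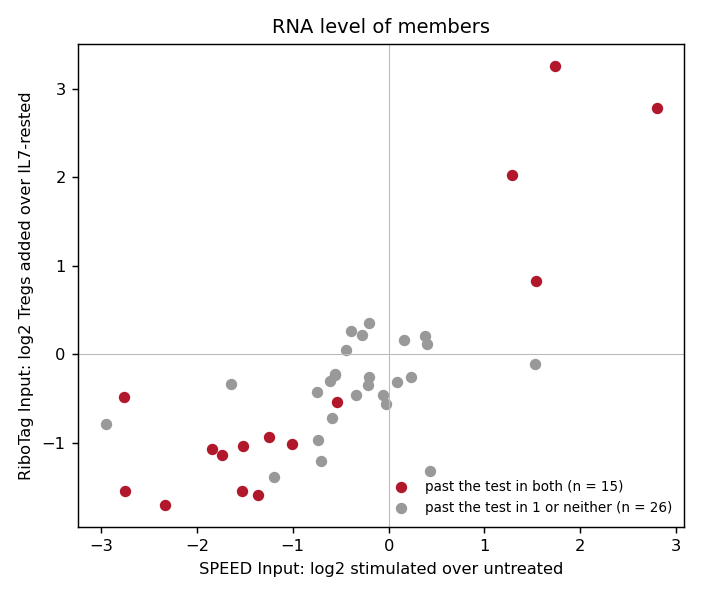
Log2 change of Input RNA of 41 members, from untreated to stimulated SPEED cells (x axis, 4 mice) against the change from rested to Treg-added RiboTag cells (y axis, 5 mice); red points passed both tests. Of the points drawn, 15 passed both tests, all with the same sign on both axes; ENSMUSG00000036777, with 0 counts in untreated Input, is not drawn.

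Mitochondria have ribosomes of their own, which do not carry the tag, and the 9 mitochondrial identifiers set aside by the rule give a scale for these values. Mitochondrial identifiers made up 0.381% to 0.428% of counts in rested Input and 0.0449% to 0.0600% in rested IP. The median log2 ratio of the 9 was -3.27 in rested cells and -3.33 with Tregs, against -0.93 and -0.82 for the members. In stimulated SPEED cells their median Pol over SubPol was -1.06, close to the members' -0.97. ENSMUSG00000115222 and ENSMUSG00000084796 were the only members called in both RiboTag cultures with a log2 ratio below -2 in each.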

How the data were processed

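The authors deposited 1 table of raw counts of reads per gene for each assay, with 53465 Ensembl identifiers. Per the submitters' processing notes, SAMtools 1.2, HTSeq 0.4.1, FastQC 0.11.3 and Picard 1.134 served, with build GRCm38; the aligner is not given in the sources used here. Libraries were made with an amplifying low-input kit that does not mark strand, per the labels' protocols, so a gene and an overlapping antisense gene cannot be told apart. Among the RiboTag columns, 16 belong to no sample given here and were left aside, and 1 SPEED library that repeats another's title was left out, leaving 74 libraries.

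The counts went into edgeR 4.0.16 (R 4.3.3), with filterByExpr (minimum count 10, minimum total 15), TMM scaling and 1 robust quasi-likelihood model per assay holding every group. All 42 members passed the filter (10751 genes in RiboTag, 12428 in SPEED). The common biological coefficient of variation was 0.188 in RiboTag and 0.215 in SPEED. Tests of ratios were contrasts of groups in that fit, with Benjamini-Hochberg adjustment over all genes at 0.05. An SE given with an edgeR log2 value is the value's size divided by the square root of the test's F statistic. It is thus derived from the test and is not a spread over mice. CPM is a count over the library's total, so a change in total RNA does not appear. The fits were also run on simulated counts with known changes and no pairing of libraries by mouse, and no result here rests on that run. Members and lists were chosen with earlier results of these data known; planned lists by gene name could not be matched. Members named in full were those with the highest Input, the lowest ratio of the rule, the largest fall in both cultures, the highest and lowest Pol over SubPol, and those next to a threshold; ENSMUSG00000036777, ENSMUSG00000036591, ENSMUSG00000034973 and ENSMUSG00000003847 were named after their values were seen.

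Samples of 1 mouse number came from the same animal, per the labels, so numbers pair the samples. The fit behind the calls did not use this pairing. In RiboTag the mean r of deviations from group means was 0.149 for libraries of the same mouse and -0.0372 for other pairs, and in SPEED 0.0376 and -0.0125. Alternatives were DESeq2 1.42.0, other size factors, no filter on low counts, the mouse or the culture as a block, only the groups compared, and each mouse left out.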

Additional observations from a re-analysis of the deposited data

Results flagged for a closer look

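In the rested cultures, mouse 1 stood apart from the other 4: its log2 ratio of summed IP to summed Input CPM over the members was -0.60, against -1.14 to -1.0 in the others. Its members' rested calls were 19 when it was left out, against 20 with it. ENSMUSG00000046404 in Input with Tregs was at 9.45 CPM in mouse 5, below 15 to 16.8 CPM in the other 4 mice. Such gaps were looked for in 68 groups of values, and chance gives about 1 in 20.

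Pol over SubPol differed between HHT and stimulated cells for 15 members, each of them higher with HHT, by the test of the difference itself.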

How the results depend on the processing

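The number of members depended on the thresholds and on the scaling. With TMM-scaled CPM in the rule it was 33, all of them among the 42. It was 72 at 5 CPM, 21 at 20 CPM, 113 at a log2 ratio of -0.8 and 14 at -1.2. With 1 mouse left out of the choice, an alternative added after the data were seen, it was 42 to 66, and 19 members were chosen each time.

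With a mouse left out, rested members lower ranged over 14 to 19, those with Tregs over 9 to 14, and members lower or higher in RiboTag Input over 11 to 16 and 4 to 6. In Pol over SubPol, untreated members lower ranged over 15 to 19 and higher over 0 to 1, stimulated ones over 18 to 20 and 0 to 1, and those under HHT over 1 to 5 and 0 to 2. SubPol over Input gave 0 to 2 lower and 5 to 9 higher, Pol over Input 11 to 14 lower, and the HHT difference 9 to 12 higher.

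With the culture as a block, 25 members were lower in IP with Tregs, 1 was higher in the Treg difference of IP over Input, 1 was higher in untreated Pol and 8 were lower in Pol under HHT. The replicate block (mouse) gave 1 member higher in the Treg difference of IP over Input, 9 lower in Pol under HHT and 1 higher in SPEED Input with Tregs, and moved no other count by over 1.5 times. Only the groups compared gave 13 rested members lower and 3 lower under HHT. Without the filter, 3 were lower and 1 higher under HHT, 7 were higher in SubPol than in Input and 9 rose with HHT. DESeq2 gave 10 lower under HHT and 1 higher in SPEED Input with Tregs. The causes were not tested, and the shares of all genes called in these other fits were not counted. No named member's value changed sign. In stimulated Pol 6 members had a mean under 10 counts, and 5 of them were called lower than in SubPol.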
